A study of Rattus norvegicus with 8 samples.

Results

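Of the 14218 gene symbols named by probe sets with a single symbol on a rat expression array, 79 belonged to the nuclear-encoded subunits of the mitochondrial oxidative phosphorylation complexes. They were taken by symbol: names that start with Nduf and one of the letters a, b, c, s or v (complex I), Sdha to Sdhd (complex II), Uqcr (complex III), Cox4 to Cox8 (complex IV) and Atp5 (complex V). No measured value entered this choice, and each gene was read at its brightest probe set. Complex I contributed 35 genes, complex II 4, complex III 7, complex IV 17 and complex V 16. The symbols also bring in Atp5if1, an inhibitor of complex V, Cox7a2l, which joins complexes III and IV into larger assemblies, and the pseudogene Cox6c-ps1. Ndufa4 is counted with complex I by its name, although it is now held to be a subunit of complex IV. The pattern does not take Cyc1 of complex III, Ndufab1 of complex I or the subunits encoded by mitochondrial DNA.

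Smooth muscle cells were isolated from thoracic aortas of male rats of the Sprague-Dawley strain and grown for 2 passages in medium with 10% serum. For 48 h they carried either a non-targeting siRNA (siNTC) or an siRNA against Giver (siGiver), a long non-coding RNA. PBS or 100 nM angiotensin II (Ang II), a peptide hormone that constricts vessels, was then given for 3 h. Each of the 4 combinations (siNTC PBS, siNTC Ang II, siGiver PBS, siGiver Ang II) was measured on 2 arrays. All cells were transfected, and the labels give 1 siRNA name for Giver, so an effect of Giver cannot be told apart from other effects of that siRNA. Age and untransfected cells are not given by the labels.

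Oxidative phosphorylation makes ATP in the inner mitochondrial membrane. Complex I (NADH dehydrogenase) and complex II (succinate dehydrogenase, also an enzyme of the tricarboxylic acid cycle) pass electrons to ubiquinone, complex III passes them to cytochrome c, and complex IV (cytochrome c oxidase) to oxygen. The proton gradient built by complexes I, III and IV drives complex V, the ATP synthase. Vascular smooth muscle also draws on glycolysis for its ATP, and its mitochondria are a source of reactive oxygen species.

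The cell type label was checked against marker genes. All 8 smooth muscle markers lay above the filter on low values (the 30th percentile of probe set means, 4.81 log2), with list means between 10.10 and 10.52 log2 in the 4 groups. None of 4 endothelial and none of 4 adipocyte markers on the array did, while 2 of 5 macrophage, 3 of 5 cardiac or skeletal muscle and 5 of 5 fibroblast markers did. The 5 fibroblast markers averaged 9.31, 8.99, 9.41 and 9.28 log2 in siNTC PBS, siNTC Ang II, siGiver PBS and siGiver Ang II. In siGiver against siNTC cells, averaged over PBS and Ang II, 6 of 8 smooth muscle markers were higher and 1 lower. Their list means were 10.17, 10.10, 10.45 and 10.52 log2 in the same order of groups. Of 5 fibroblast markers, 4 were higher. The share of all genes tested that was called in this contrast was 23.1% higher and 29.1% lower. The part of these marker shifts in the results below was not tested. The 3′ minus 5′ value of the beta-actin control lay between 0.231 and 0.2997 log2 on all 8 arrays, and that of GAPDH between -0.155 and -0.055.

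Most of these subunits were among the bright probe sets. In all, 75 members passed the filter: all of complexes I, II, III and V, and 13 of 17 in complex IV. A mean of at least 10 log2 was reached by 60 members. The members below the filter were Cox7b2 (2.95 log2) and Cox8b (3.86), Cox6a2 (4.18) and Cox4i2 (4.71), which are isoforms known from testis, striated muscle and lung. Just inside it stood Ndufa4l2 at 4.94, Cox6b2 at 5.23, Cox7a1 at 5.41 and Cox6c-ps1 at 5.71. No order between genes is read from these levels, since probe sets differ in response. Within groups, the SD of a member between its 2 arrays had a median of 0.027 log2 and a maximum of 0.240.

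Subunit transcripts differed in both directions in cells given Giver siRNA. Averaged over PBS and Ang II, 8 of the 75 tested members were higher and 28 lower than with siNTC (limma, adjusted p under 0.05), against a background of 52.2% of the 11373 genes tested being called, 23.1% higher and 29.1% lower. Members were called at 48.0%, 10.7% higher and 37.3% lower, and their median difference was -0.022 log2 against -0.015 for all genes. For the 1852 genes with a mean of at least 10 log2, where most members lie, 24.9% were higher and 38.8% lower, with a median of -0.037. The share of members called lower was thus near that of equally bright genes, and the share called higher was below it. In these bulk samples, fewer cells of a type and less RNA per cell cannot be told apart. With cyclic loess normalization, 13 members were higher and 27 lower.

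The differences were small apart from a few genes. A difference under 0.3 log2 in size was found for 71 of the 75 members, and 1 reached 1.5-fold. This was Atp5f1a, the alpha subunit of the ATP synthase, higher by 0.81 ± 0.033 (SE, 1.75-fold). Ndufs8, an iron-sulfur subunit of complex I, was lower at -0.58 ± 0.037, just short of that size. Uqcr11 of complex III (0.56) and Sdhb of complex II (-0.33) were next.

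**Figure D1:**
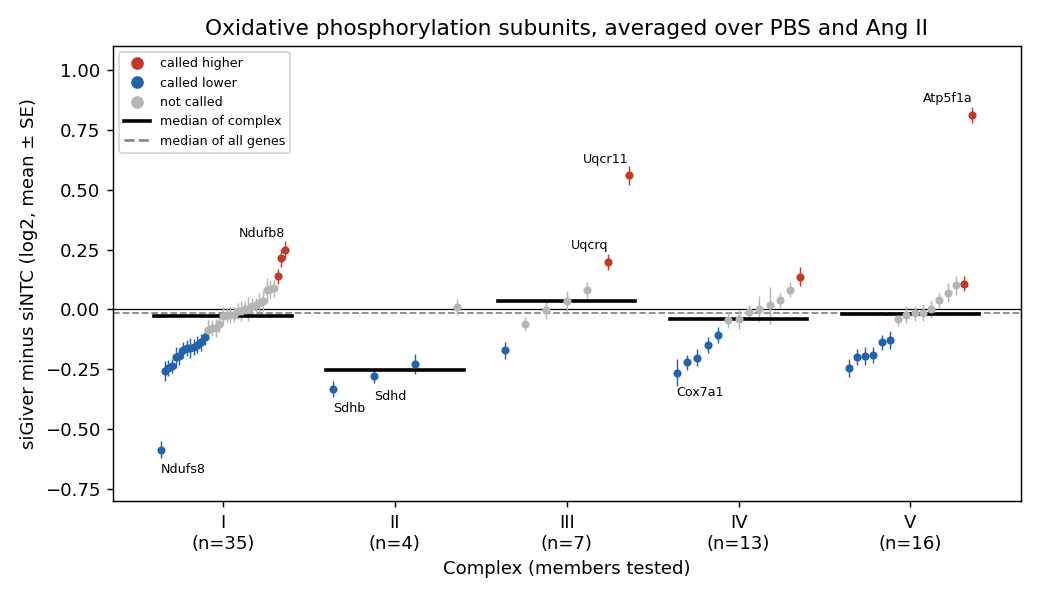
siGiver minus siNTC difference (log2, point and SE, the mean of both treatments, 4 arrays in each arm) of the 75 members tested, by complex and in ascending order within each. Red points were called higher, blue lower and grey not called, the black bar is the median of the complex and the dashed line the median of all genes. Atp5f1a at 0.81 and Ndufs8 at -0.58 stand apart, and complex II has 3 of 4 members lower with a median of -0.25.

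In complex I, the entry point for electrons from NADH, 13 of 35 members were lower, 3 higher and 19 not called in the average, with a median of -0.027. The called members were spread over core and accessory subunits. Ndufs8, a core subunit that carries iron-sulfur clusters on the path to ubiquinone, read 9.47 and 9.53 log2 on the siNTC PBS arrays, 9.52 and 9.54 on the siNTC Ang II arrays, 8.99 and 8.98 on the siGiver PBS arrays and 8.82 and 8.93 on the siGiver Ang II arrays. All 4 siGiver arrays lay below all 4 siNTC arrays, and the difference was -0.52 ± 0.052 in PBS (adjusted p = 0.000325) and -0.65 ± 0.052 with Ang II (adjusted p = 7.42e-05).

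The other core subunits of complex I with fixed reporting differed less. Ndufv1, which binds NADH and flavin mononucleotide, read 9.80 and 9.96 (siNTC, PBS), 9.89 and 9.91 (siNTC, Ang II), 9.69 and 9.73 (siGiver, PBS) and 9.77 and 9.73 (siGiver, Ang II). Its siGiver arrays lay below its siNTC arrays, with siGiver minus siNTC at -0.16 ± 0.041 in the average (adjusted p = 0.0137). Ndufs1, the large iron-sulfur subunit, was not called, at -0.0081 ± 0.033 (adjusted p = 0.862).

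Accessory subunits of the membrane arm went in both directions. Ndufb8 read 8.56 and 8.63 log2 on the siNTC PBS arrays, 8.68 and 8.69 on the siNTC Ang II arrays, 9.02 and 8.90 on the siGiver PBS arrays and 8.79 and 8.84 on the siGiver Ang II arrays. It was highest on the siGiver PBS arrays, with a difference of 0.37 ± 0.054 in PBS (adjusted p = 0.00175) and of 0.13 ± 0.054 with Ang II, which was not called (adjusted p = 0.0874). Ndufb6 was higher in both treatments, at 0.23 ± 0.052 in PBS and 0.20 ± 0.052 with Ang II (adjusted p = 0.0125 and 0.0154).

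Lower members of the same arm included Ndufb7 and Ndufb2. Ndufb7 read 10.62 and 10.77 (siNTC, PBS), 10.72 and 10.74 (siNTC, Ang II), 10.55 and 10.497 (siGiver, PBS) and 10.38 and 10.39 (siGiver, Ang II), so its lowest values were those of siGiver cells with Ang II, -0.35 ± 0.059 against siNTC (adjusted p = 0.00243). Ndufb2 was lower at -0.21 ± 0.048 in PBS and -0.28 ± 0.048 with Ang II (adjusted p = 0.0124 and 0.00238). Ndufa4 was lower at -0.24 ± 0.03 in the average (adjusted p = 0.000397). Ndufa4l2, its hypoxia-induced relative, was not called, at -0.0067 ± 0.04 (adjusted p = 0.907). For Ndufv3 and Ndufa7, called lower at their brightest probe set, the next brightest was not called in the average (-0.019, adjusted p = 0.698, and -0.026, adjusted p = 0.662).

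Complex II, which oxidises succinate, had the lowest median of the 5 complexes in the average, -0.25 log2, from 3 lower and no higher of 4 members. Its promoters are shown because Sdha, Sdhb and Sdhd were lower together while Sdhc was not called. Each runs from 250 bases before to 50 after the annotated start, 5′ to 3′ on the gene's strand, from RefSeq on build GRCr8. Capitals mark 7-letter strings searched on both strands: CGCANGC, as in the NRF1 motif, CCGGAAG, as in the motif of ETS factors such as GABP, and AAGATGG, as in the YY1 motif. These factors are known from other mammals as activators of nuclear genes of the respiratory chain. Sdha lies at chr1:30764303-30764602, plus strand, Sdhb at chr5:158547684-158547983, plus strand, Sdhc at chr13:86097976-86098275, minus strand, and Sdhd at chr8:59850592-59850891, minus strand.
Sdha: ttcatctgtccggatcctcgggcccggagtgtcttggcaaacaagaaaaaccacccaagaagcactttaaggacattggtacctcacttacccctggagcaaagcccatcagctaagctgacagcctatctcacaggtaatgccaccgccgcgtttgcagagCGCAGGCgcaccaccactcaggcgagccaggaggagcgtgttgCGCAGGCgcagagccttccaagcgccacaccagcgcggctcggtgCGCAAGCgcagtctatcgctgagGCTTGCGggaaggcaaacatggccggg
Sdhb: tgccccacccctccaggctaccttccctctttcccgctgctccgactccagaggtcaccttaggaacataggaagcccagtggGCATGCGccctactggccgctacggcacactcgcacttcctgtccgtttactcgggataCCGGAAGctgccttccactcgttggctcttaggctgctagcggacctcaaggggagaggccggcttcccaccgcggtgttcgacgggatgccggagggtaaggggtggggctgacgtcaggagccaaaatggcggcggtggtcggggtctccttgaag
Sdhc: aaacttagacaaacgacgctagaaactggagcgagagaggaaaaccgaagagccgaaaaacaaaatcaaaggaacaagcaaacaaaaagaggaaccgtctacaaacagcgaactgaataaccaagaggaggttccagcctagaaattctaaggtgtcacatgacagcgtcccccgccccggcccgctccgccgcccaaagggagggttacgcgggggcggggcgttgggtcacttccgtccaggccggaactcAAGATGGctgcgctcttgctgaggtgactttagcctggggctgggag
Sdhd: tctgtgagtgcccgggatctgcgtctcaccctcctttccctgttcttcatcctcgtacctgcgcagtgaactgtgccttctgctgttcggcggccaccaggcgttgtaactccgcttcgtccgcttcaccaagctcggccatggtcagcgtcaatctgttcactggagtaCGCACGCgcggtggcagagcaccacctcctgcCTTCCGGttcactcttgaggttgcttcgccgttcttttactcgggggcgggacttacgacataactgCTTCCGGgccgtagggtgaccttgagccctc

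The capitals in Sdha are 4 matches of the NRF1 string. Sdhb holds 1 NRF1 and 1 ETS match, Sdhd 1 NRF1 and 2 ETS matches, and Sdhc 1 YY1 match and neither of the others. No matches of different strings overlap in these 4 promoters.

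Sdhb, the iron-sulfur subunit, read 11.03 and 11.12 log2 on the siNTC PBS arrays, 11.17 and 11.17 on the siNTC Ang II arrays, 10.82 and 10.85 on the siGiver PBS arrays and 10.72 and 10.77 on the siGiver Ang II arrays. The siGiver arrays lay below every siNTC array, with siGiver minus siNTC at -0.24 ± 0.049 in PBS and -0.42 ± 0.049 with Ang II (adjusted p = 0.00743 and 0.00038). Sdhd, a membrane anchor, read 10.13 and 10.16 (siNTC, PBS), 10.22 and 10.19 (siNTC, Ang II), 9.92 and 9.95 (siGiver, PBS) and 9.87 and 9.86 (siGiver, Ang II). Its 2 sets of siGiver arrays were likewise the lowest, with siGiver minus siNTC at -0.21 ± 0.043 in PBS and -0.34 ± 0.043 with Ang II (adjusted p = 0.00732 and 0.000582). The second probe set of Sdhd, about as bright, was not called in PBS (-0.057, adjusted p = 0.381) and lower with Ang II (-0.23, adjusted p = 0.006).

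Sdha, the flavoprotein that holds the succinate site, read 10.14 and 10.31 (siNTC, PBS), 10.13 and 10.14 (siNTC, Ang II), 10.00 and 10.04 (siGiver, PBS) and 9.87 and 9.88 (siGiver, Ang II). The siNTC PBS arrays differed from each other by nearly as much as the arms did, and Sdha was lower at -0.20 ± 0.061 in PBS and -0.25 ± 0.061 with Ang II (adjusted p = 0.0379 and 0.0118). Sdhc, the other membrane anchor, read 10.999 and 11.002 (siNTC, PBS), 11.09 and 11.05 (siNTC, Ang II), 11.17 and 11.08 (siGiver, PBS) and 10.95 and 10.99 (siGiver, Ang II). Its groups did not order by siRNA, and it was not called in PBS (0.13 ± 0.048, adjusted p = 0.0777) or with Ang II (-0.10 ± 0.048, adjusted p = 0.122).

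Complex III, which hands electrons from ubiquinol to cytochrome c, had the highest median of the 5 complexes in the average, 0.034 log2, with 2 higher, 1 lower and 4 not called of 7. Its catalytic and core subunits were not called in this contrast: Uqcrfs1, the Rieske iron-sulfur protein, stood at -0.0039 ± 0.037 (adjusted p = 0.942) and the core protein Uqcrc1 at 0.034 ± 0.043 (adjusted p = 0.539). The called members were small accessory subunits. Uqcr11 read 10.17 and 10.30 log2 on the siNTC PBS arrays, 10.24 and 10.24 on the siNTC Ang II arrays, 10.85 and 10.85 on the siGiver PBS arrays and 10.71 and 10.78 on the siGiver Ang II arrays. Every siGiver array exceeded every siNTC array, by 0.61 ± 0.056 in PBS and 0.51 ± 0.056 with Ang II (adjusted p = 0.00021 and 0.000293).

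Uqcrq, a ubiquinone-binding accessory subunit, was higher in siGiver cells too. It read 11.31 and 11.39 (siNTC, PBS), 11.35 and 11.38 (siNTC, Ang II), 11.62 and 11.59 (siGiver, PBS) and 11.51 and 11.51 (siGiver, Ang II), a difference of 0.25 ± 0.046 in PBS and 0.15 ± 0.046 with Ang II (adjusted p = 0.00464 and 0.0356). The call with Ang II was lost without the filter (adjusted p = 0.0589). It was also lost when any single Ang II array was left out, with differences from 0.13 to 0.16, and without either siGiver PBS array. Uqcr10 went the other way in the average, at -0.17 ± 0.036 (adjusted p = 0.00548).

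In complex IV, the oxygen-consuming oxidase, 5 of 13 tested members were lower, 1 higher and 7 not called in the average, with a median of -0.040. The lower members were the widely expressed small subunits Cox8a (-0.22 ± 0.031), Cox7c (-0.20 ± 0.036), Cox6a1 (-0.15 ± 0.033) and Cox6b1 (-0.11 ± 0.034), and the muscle isoform Cox7a1. The 4 siGiver arrays of Cox8a lay below its siNTC arrays, with 12.32 and 12.33 (siNTC, PBS), 12.33 and 12.38 (siNTC, Ang II), 12.16 and 12.16 (siGiver, PBS) and 12.06 and 12.10 (siGiver, Ang II). Cox7a1 read 5.56 and 5.32 log2 on the siNTC PBS arrays, 5.68 and 5.62 on the siNTC Ang II arrays, 5.34 and 5.36 on the siGiver PBS arrays and 5.17 and 5.27 on the siGiver Ang II arrays. It was dim, its groups overlapped in PBS (-0.10 ± 0.08, adjusted p = 0.39), and the difference with Ang II was -0.43 ± 0.08 (adjusted p = 0.00364).

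Larger or regulatory subunits of complex IV stood close to 0. Cox4i1, the widespread isoform of a subunit that binds ATP, was at 0.083 ± 0.032 (adjusted p = 0.0638), a value that passed with cyclic loess (0.083 becoming 0.11, adjusted p = 0.021), with a filter at the 50th percentile and with trended, robust moderation. Cox7a2l (0.039 ± 0.031, adjusted p = 0.332) and the testis isoform Cox6b2 (0.0028 ± 0.053, adjusted p = 0.973) were not called. Cox5a was higher at 0.14 ± 0.039 (adjusted p = 0.02). That value came from a probe set with a mean of 7.27 log2. A brighter probe set, at 12.05 log2, names both Cox5a and another locus and was not called (0.037 ± 0.033, adjusted p = 0.393).

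Complex V, the ATP synthase, had 2 higher, 6 lower and 8 not called of 16 members in the average, with a median of -0.019. Its alpha and beta subunits, which form the catalytic head, were the 2 that were higher. Atp5f1a, the alpha subunit, read 10.78 and 10.81 log2 on the siNTC PBS arrays, 10.77 and 10.72 on the siNTC Ang II arrays, 11.63 and 11.61 on the siGiver PBS arrays and 11.50 and 11.57 on the siGiver Ang II arrays. The siGiver arrays exceeded the siNTC arrays by 0.83 ± 0.046 in PBS (1.78-fold, adjusted p = 4.34e-05) and by 0.79 ± 0.046 with Ang II (1.73-fold, adjusted p = 2.15e-05). Atp5f1b, the beta subunit, was higher by 0.11 ± 0.032 in the average (adjusted p = 0.023), so the pair that assembles in equal numbers differed by 1.75-fold and 1.08-fold. Atp5f1b was called in neither treatment alone (with Ang II 0.10 ± 0.045, adjusted p = 0.103). Its call in the average was lost when certain single arrays were left out.

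The lower members of complex V came from its stalk, membrane part and regulator. They were the membrane subunits Atp5mf (-0.24 ± 0.037) and Atp5mg (-0.13 ± 0.036), the dimer-associated subunit Atp5mk (-0.20 ± 0.033), the epsilon subunit Atp5f1e (-0.19 ± 0.034), coupling factor 6 Atp5pf (-0.14 ± 0.032) and the inhibitor Atp5if1 (-0.19 ± 0.037). Atp5mf read 11.79 and 11.88 (siNTC, PBS), 11.85 and 11.78 (siNTC, Ang II), 11.61 and 11.67 (siGiver, PBS) and 11.55 and 11.50 (siGiver, Ang II), with all siGiver arrays below all siNTC arrays. Atp5if1 was lower with Ang II (-0.28 ± 0.052, adjusted p = 0.00332) and not called in PBS (-0.11 ± 0.052, adjusted p = 0.159), and its second, dim probe set was not called in the average (-0.10, adjusted p = 0.265).

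**Figure D2:**
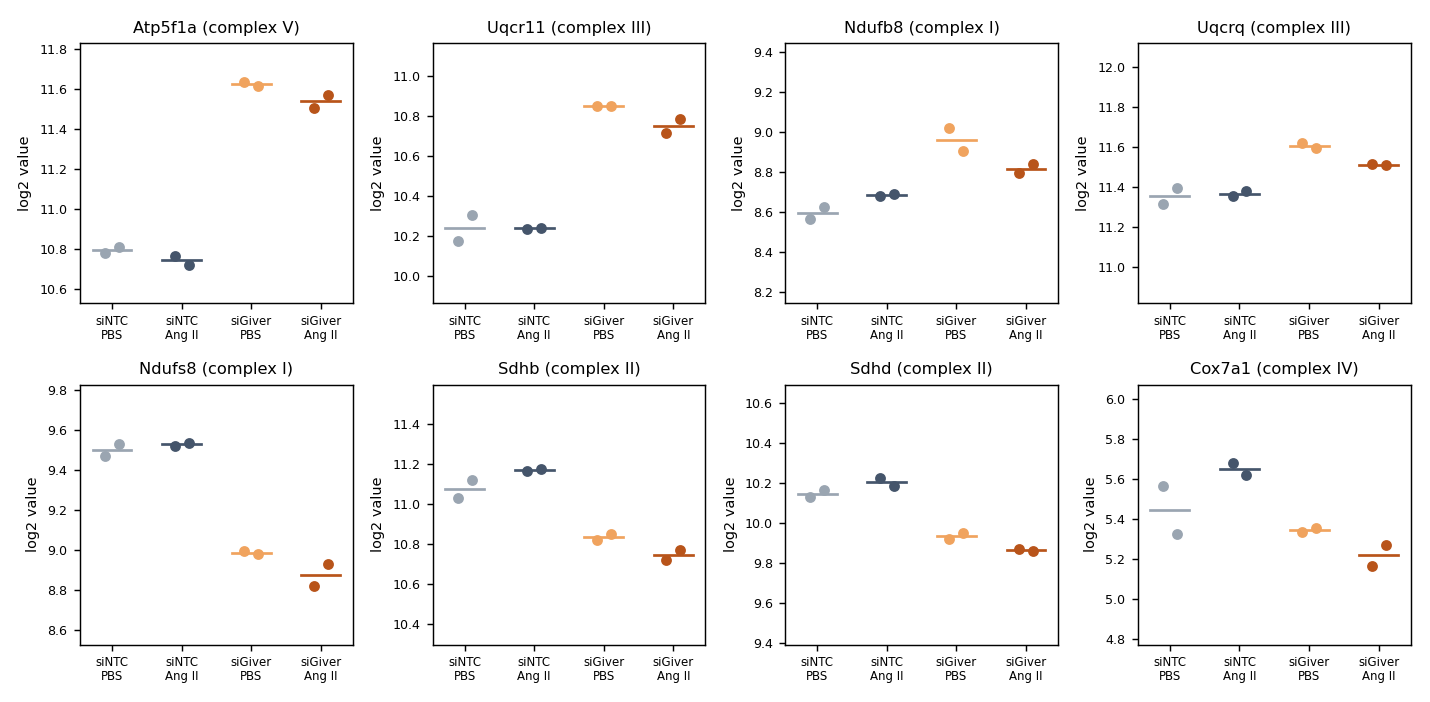
Deposited log2 value on each array (points, 2 per group) with the group mean (bar) for 4 members higher and 4 lower in siGiver cells. Every panel spans the same range of log2 values. In Atp5f1a the siGiver arrays lie between 11.50 and 11.63 and the siNTC arrays between 10.72 and 10.81, while in Cox7a1 the groups overlap in PBS.

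The promoters of the members with the largest fall and the largest rise are shown for comparison with complex II, from the same source and with the same strings in capitals. Atp5f1a lies at chr18:73567287-73567586, plus strand, and Ndufs8 at chr1:210573649-210573948, minus strand. Both hold 1 ETS match, and Ndufs8 also holds 1 NRF1 match. A link between a string and the direction of a difference was not tested. A promoter of Uqcr11 was not used here.
Atp5f1a: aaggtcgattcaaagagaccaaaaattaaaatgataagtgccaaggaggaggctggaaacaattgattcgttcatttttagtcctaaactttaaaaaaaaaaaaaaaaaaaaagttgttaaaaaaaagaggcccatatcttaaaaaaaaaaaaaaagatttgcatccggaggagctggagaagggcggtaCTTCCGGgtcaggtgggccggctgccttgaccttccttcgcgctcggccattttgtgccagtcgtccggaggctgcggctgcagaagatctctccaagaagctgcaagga
Ndufs8: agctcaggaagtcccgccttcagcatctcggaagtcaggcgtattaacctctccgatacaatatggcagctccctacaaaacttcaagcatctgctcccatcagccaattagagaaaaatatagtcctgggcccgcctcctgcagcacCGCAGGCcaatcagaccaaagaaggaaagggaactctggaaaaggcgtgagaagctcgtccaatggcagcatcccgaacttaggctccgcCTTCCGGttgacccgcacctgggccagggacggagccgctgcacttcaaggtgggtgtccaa

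Across the group, 71 of the 79 members were matched to a promoter. The NRF1 string occurred in 31 of them, 43.7%, against 19.6% of 18999 protein-coding promoters of the same length. The ETS string was in 28.2% against 11.2%, and the YY1 string in 26.8% against 7.58%. TATAAA on either strand was in 11.3% against 13.1%. By complex, the NRF1 string was found in 14 of 33 promoters of complex I, 3 of 4 of complex II, 3 of 6 of complex III, 2 of 13 of complex IV and 9 of 15 of complex V. Calls in the siRNA average were counted by string, with no test. Of 31 tested members with the NRF1 string, 2 were higher and 12 lower, and of 37 without it 4 were higher and 14 lower, with medians of -0.040 and -0.022. With the ETS string, 2 of 20 were higher and 9 lower, and without it 4 of 48 and 17, with medians of -0.070 and -0.021. With the YY1 string, 1 of 19 was higher and 6 lower, and without it 5 of 49 and 20, with medians of -0.060 and -0.027. A match is a description of letters and not a binding site.

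The siRNA arms were then set side by side in each treatment. In PBS, 8 members were higher and 8 lower of 75, or 21.3% called against a background of 35.1%, with medians of 0.013 for members and -0.0047 for all genes. With Ang II, 5 were higher and 28 lower, or 44.0% against a background of 44.3%, with medians of -0.098 and -0.026. Of all genes 24.8% were called lower with Ang II, of those at 10 log2 or more 32.2%, and of the members 37.3%. Cyclic loess gave 12 higher and 8 lower in PBS. Trended, robust moderation gave 32 calls in PBS, 14 higher and 18 lower, and the PBS count was 9 (5 higher, 4 lower) without siGiver PBS replicate 1. The even split in PBS rested on both siNTC PBS arrays: there were 4 higher and 12 lower without replicate 1, and 10 higher and 4 lower without replicate 2. The median of the members in PBS was -0.020 without the former and 0.042 without the latter, so its sign is not settled. With Ang II, leaving out 1 of the 4 Ang II arrays left 2 or 3 members higher and 21 to 24 lower.

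By member, 4 were higher in both treatments (Atp5f1a, Uqcr11, Uqcrq and Ndufb6) and 8 lower in both (Ndufs8, Ndufa4, Ndufb2, Sdha, Sdhb, Sdhd, Cox8a and Atp5mf). Another 4 were higher in PBS and not called with Ang II, 1 was higher with Ang II and not called in PBS, 20 were lower with Ang II and not called in PBS, and 38 were called in neither. No member was called in opposite directions. Several of these calls were lost when a single array was left out, as listed further below. The 4 called in PBS alone were Ndufb8, Ndufb9, Ndufa3 and Atp5f1d, the delta subunit of complex V. Ndufa3, an accessory subunit, read 10.68 and 10.75 (siNTC, PBS), 10.78 and 10.83 (siNTC, Ang II), 10.96 and 10.89 (siGiver, PBS) and 10.74 and 10.80 (siGiver, Ang II), so the siGiver excess of 0.21 ± 0.051 in PBS (adjusted p = 0.0167) stood beside -0.031 ± 0.051 with Ang II (adjusted p = 0.667). A call in 1 treatment and not in the other does not show that the treatments differ, and the interaction given below tests that.

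Counted by complex, the members called lower went from 3 of 35 in PBS to 13 of 35 with Ang II in complex I, from 1 to 5 of 13 in complex IV and from 1 to 6 of 16 in complex V. Complex II had 3 of 4 lower in each treatment, and complex III 0 and 1 of 7. The count of complex II in PBS is the less settled. There the call of Sdha was lost without siGiver PBS replicate 1, and the second probe set of Sdhd was not called (-0.057). Of all genes 19.1% were lower in PBS and 24.8% with Ang II, and of those at 10 log2 or more 27.0% and 32.2%. With Ang II the shares lower in complexes I, IV and V were 37.1%, 38.5% and 37.5%. The medians in PBS and with Ang II were 0.0075 and -0.12 in complex I, -0.21 and -0.30 in complex II, 0.080 and -0.026 in complex III, 0.013 and -0.11 in complex IV, and 0.017 and -0.060 in complex V. Complex II thus had the lowest and complex III the highest median in each treatment. With 4 and 7 members these are descriptions without a test.

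On each siGiver array, the mean of the members was also lowest in complex II and highest in complex III. Relative to siNTC PBS, complex II stood at -0.13 and -0.13 log2 on the siGiver PBS arrays and at -0.26 and -0.24 on the siGiver Ang II arrays. Complex III stood at 0.13 and 0.13 on the siGiver PBS arrays and at 0.044 and 0.047 on the siGiver Ang II arrays. Its mean depends strongly on Uqcr11, which had group means of 10.24 log2 in siNTC PBS and 10.75 in siGiver Ang II. The median difference of complex III between the siRNA arms with Ang II was -0.026. Over all 75 members the siGiver Ang II arrays were the lowest, at -0.083 and -0.076, and the siGiver PBS arrays lay at 0.0055 and 0.010. The siNTC PBS arrays lay at -0.035 and 0.035, apart from each other by nearly as much as the groups, and the siNTC Ang II arrays at 0.0097 and 0.018.

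**Figure D3:**
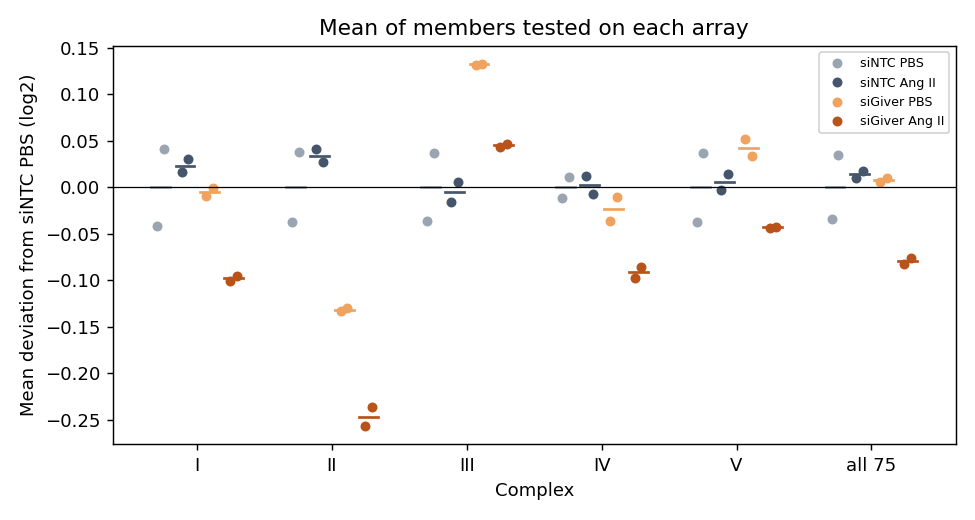
Mean over the members tested of each complex, and over all 75, of the log2 deviation from the siNTC PBS mean, on each array (points) with the group mean (bar). The siGiver Ang II arrays of complex II lie at -0.26 and -0.24. Those of complex III lie above 0, with Uqcr11 as its member of largest rise. The siNTC PBS arrays spread from -0.035 to 0.035 over all members.

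No subunit transcript passed the test for a response to 3 h of Ang II in control cells. In siNTC cells limma called 0 of 75 members, against a background of 6.14% of genes, 3.97% higher and 2.17% lower. At an unadjusted p under 0.05 there were 4, the lowest adjusted p was 0.128, and the median was 0.013 against 0.0059 for all genes. Cox6b2 had the largest difference, -0.23 ± 0.075 (adjusted p = 0.128), followed by Cox7a1 at 0.20 ± 0.08 (adjusted p = 0.184). Trended, robust moderation gave 1 call, lower.

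In siGiver cells limma called 1 member, Uqcrc2, a core protein of complex III, against a background of 16.3% of genes (9.12% higher, 7.19% lower). Uqcrc2 read 11.23 and 11.21 (siNTC, PBS), 11.15 and 11.11 (siNTC, Ang II), 11.19 and 11.20 (siGiver, PBS) and 11.04 and 11.02 (siGiver, Ang II). Its siGiver Ang II arrays were the lowest of the 8, -0.16 ± 0.042 against siGiver PBS (adjusted p = 0.0381). The call was lost under most alternatives, among them no filter (adjusted p = 0.0678), the replicate number as a block (0.0552) and leaving out any of 6 arrays, and a second bright probe set gave -0.049 (adjusted p = 0.686).

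The small differences in siGiver cells nearly all pointed one way. Ang II minus PBS was below 0 in 72 of 75 members, 96.0%, against 57.5% of all genes and 55.8% of those at 10 log2 or more. All members were read on the same arrays, so a shift shared by them on 1 array moves all signs together. The signs are thus not independent, and members do not count as replicates. For scale, the mean of all members was -0.035 and 0.035 on the 2 siNTC PBS arrays. The median was -0.089 log2 against -0.028 for all genes, and 21 members had an unadjusted p under 0.05. By complex, the differences were below 0 in 34 of 35 members of complex I, 4 of 4 of complex II, 7 of 7 of complex III, 11 of 13 of complex IV and 16 of 16 of complex V, with medians between -0.12 (complex II) and -0.085 (complexes III and IV). The exceptions were Cox5a at 0.10, Cox6b2 at 0.056 and Ndufv1 at 0.04. Trended, robust moderation gave 24 calls, all lower. With array medians subtracted the median became -0.063.

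**Figure D4:**
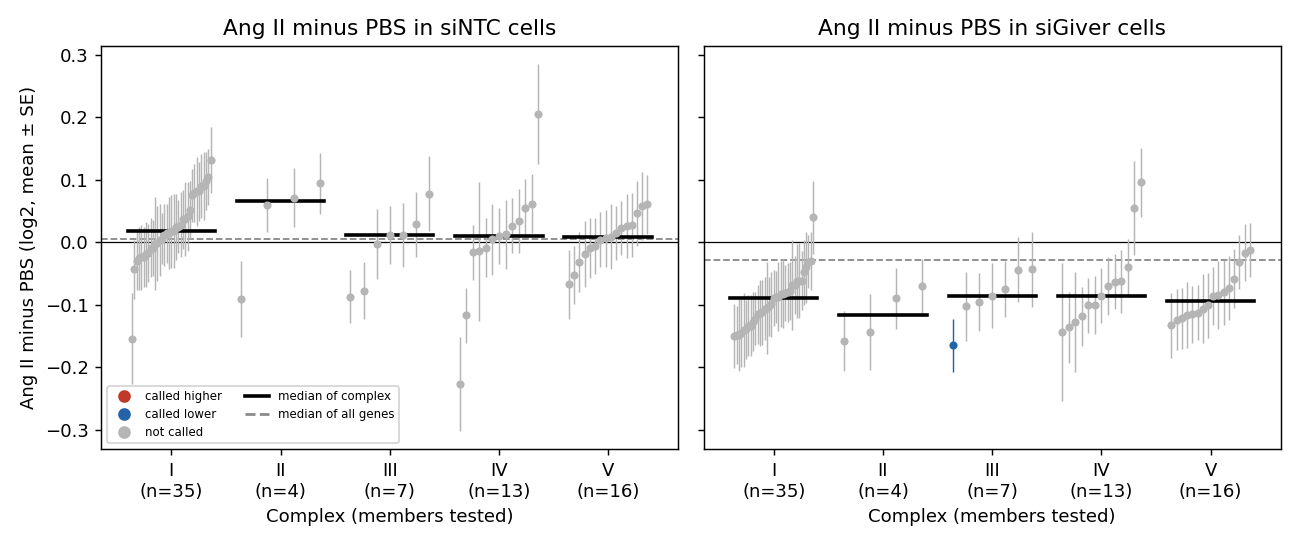
Ang II minus PBS difference (log2, point and SE, 2 arrays against 2) of the 75 members by complex, in siNTC cells (left) and siGiver cells (right), with the median of each complex (black bar) and of all genes (dashed line). The siNTC points scatter around 0 (median 0.013), and 72 of 75 siGiver points lie below 0 (median -0.089).

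Whether the response to Ang II differed between the arms was tested by the interaction, the siGiver difference minus the siNTC difference. No member passed (0 of 75 in limma, against a background of 6.22%, 3.35% higher and 2.87% lower), 14 had an unadjusted p under 0.05, and the lowest adjusted p was 0.083. The value was below 0 in 69 of 75 members, with a median of -0.11 against -0.022 for all genes and -0.0018 for those at 10 log2 or more. These signs come from the same arrays and are not independent either. Ndufa8, an accessory subunit of complex I, had the lowest p, at -0.24 ± 0.067 (adjusted p = 0.083), then Sdhc at -0.23 ± 0.068 (adjusted p = 0.0967) and Ndufa3 at -0.24 ± 0.073 (adjusted p = 0.103). Complex II had the lowest median, -0.16, and complex III the highest, -0.097. The interaction uses the siNTC PBS arrays, and its median was -0.067 without replicate 1 of them and -0.15 without replicate 2. Trended, robust moderation gave 11 calls, all lower. The siRNA and Ang II contrasts share arrays pairwise, so their values are not independent of each other.

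The neighbours of the subunits in mitochondrial biology were counted in the same fit. Of all genes tested, 16.0% were higher and 19.1% lower in siGiver against siNTC cells in PBS, and 19.5% and 24.8% with Ang II. The counts of every list below in PBS and with Ang II stand against these shares, and no list was tested as a set. Assembly factors, which build the complexes, had 7 of 43 higher and 9 lower in siGiver against siNTC cells in PBS, and 3 higher and 17 lower with Ang II. Uqcc3 and Ttc19, factors for complex III, were lower at -0.55 ± 0.035 and -0.44 ± 0.043 in the average (adjusted p = 1.5e-05 and 0.000108). Ndufaf1, a factor for complex I, was at -0.49 ± 0.044 and Cox17, a copper chaperone for complex IV, at -0.43 ± 0.043 (adjusted p = 7.47e-05 and 0.000115). These factors were named as those of smallest p among the 43 in the average, so they do not stand for the list or for a complex. Among the members of complex III itself, Uqcr11 and Uqcrq were higher, Uqcr10 was lower and 4 of 7 were not called.

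Proteins of the mitochondrial ribosome, which translates the subunits encoded by mitochondrial DNA, had 12 of 73 higher and 1 lower in PBS, and 4 higher and 26 lower with Ang II, with medians of 0.029 and -0.11. Mrps27 (0.81 ± 0.066, 1.75-fold) and Mrpl36 (0.56 ± 0.045) were higher in the average and Mrpl49 lower (-0.44 ± 0.043), with adjusted p = 4.56e-05, 4.28e-05 and 0.000101. The list's interaction median was -0.15, with 0 higher and 4 lower of 73, against 3.35% and 2.87% of all genes.

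Of 21 genes of the tricarboxylic acid cycle and its entry, 2 were higher and 4 lower in PBS, and 3 higher and 8 lower with Ang II. Cs, the citrate synthase that starts the cycle and is often used as a measure of mitochondrial content, was higher by 0.89 ± 0.032 (1.85-fold, adjusted p = 2.07e-06). Suclg2, a subunit of the succinate-producing step before complex II, was lower at -0.32 ± 0.032, and the pyruvate dehydrogenase kinase Pdk2 at -0.41 ± 0.038 (adjusted p = 0.000109 and 8.7e-05). Cs and Atp5f1a were both higher, but neither stands for its group. In the average 3 of these 21 genes were higher and 6 lower, and in complex V 2 of 16 were higher and 6 lower. Of all genes, 23.1% were higher and 29.1% lower in that contrast.

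Among 8 antioxidant and uncoupling genes, 1 was higher and 4 lower in PBS, and 1 higher and 5 lower with Ang II. Gpx4, which reduces lipid peroxides, was lower at -0.57 ± 0.034, the matrix superoxide dismutase Sod2 at -0.42 ± 0.033 and the peroxiredoxin Prdx3 at -0.23 ± 0.031 in the average, while Ucp2, an inner membrane carrier, was higher by 0.46 ± 0.04. Of 12 carriers and electron transfer proteins, 0 were called in PBS and 4 were lower with Ang II, among them Etfb (-0.30) and the outer membrane channel Vdac3 (-0.19). Of 17 genes of import and membrane shape, 1 was higher and 1 lower in PBS, and 3 higher and 1 lower with Ang II, with the fusion gene Mfn2 higher by 0.57 ± 0.033 in the average.

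Regulators of mitochondrial gene expression had 5 of 19 higher and 2 lower in PBS, and 5 higher and 4 lower with Ang II. Myc, a growth-associated transcription factor, was higher by 0.75 ± 0.031, and Nrip1, a corepressor known to restrain genes of oxidative metabolism, by 0.49 ± 0.034. Esrra, an orphan nuclear receptor known to activate them, was lower at -0.34 ± 0.038. Their adjusted p values were 3.09e-06, 1.99e-05 and 0.000217. In the average 7 of the 19 regulators were higher and 4 lower, against 23.1% and 29.1% of all genes. Tfb2m was higher by 0.285 ± 0.042 in the average (adjusted p = 0.000828). Ppargc1b was higher in PBS (0.37 ± 0.075, adjusted p = 0.00724) and Pprc1 with Ang II (0.35 ± 0.0425, adjusted p = 0.000486). Whether these regulators bear on the subunit differences was not tested.

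**Figure D5:**
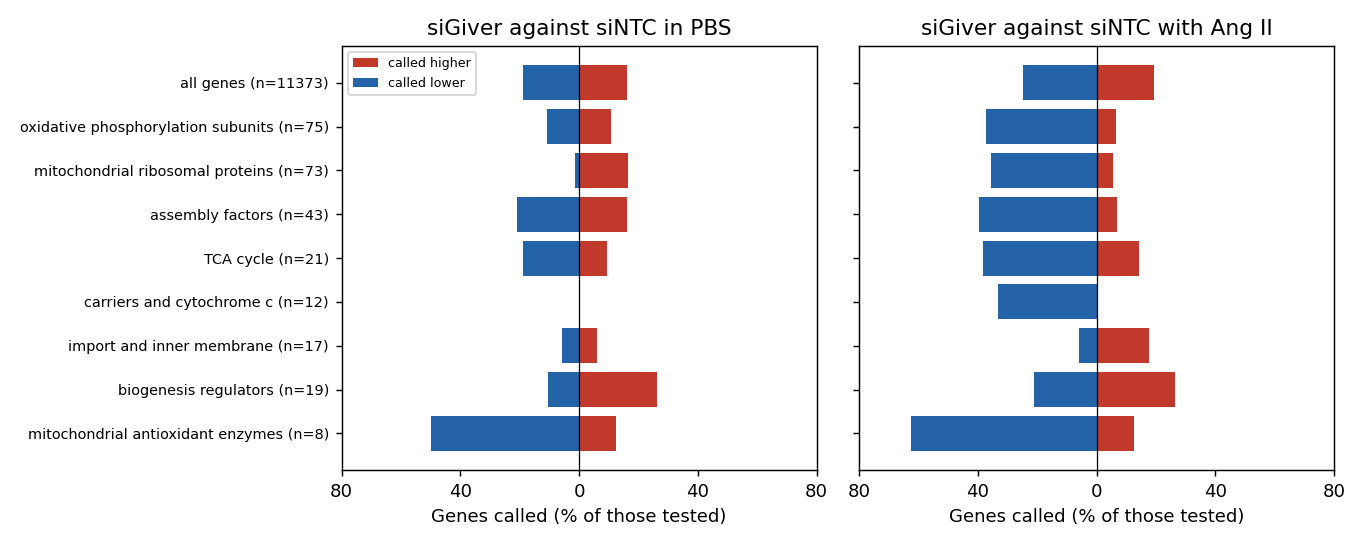
Share of genes called higher (red, right of 0) and lower (blue, left of 0) in siGiver against siNTC cells, in PBS and with Ang II, for all genes, the oxidative phosphorylation subunits and 7 related lists, with the number tested in brackets. For the subunits 10.7% were lower in PBS and 37.3% with Ang II, against 19.1% and 24.8% of all genes.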

How the data were processed

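Total RNA (5 ug) from 8 samples was labelled with biotin and hybridised to arrays. The deposited file holds 1 log2 value for each probe set on each array. RMA and Partek are named, without versions, in the submitters' processing notes. RMA corrects background, equalises array distributions and summarises each probe set, so a shift common to all genes is removed. Arrays have no read depth, and their number limits the precision. Array medians lay between 6.15 and 6.19.

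Groups were taken from the labels. Whether 2 arrays of a group stand for separate cultures is not in the labels. The p-values then measure only how much these arrays vary, and that spread may be technical. Arrays of the same group correlated at 0.998. No probe set is annotated as Giver, and the knockdown itself was not analysed here. No scan date was used here.

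Of 31099 probe sets, 57 are controls, 20832 name 1 symbol, 436 several (these left out, 7 of them for members) and 9780 none. After a filter at the 30th percentile, the brightest probe set per symbol gave 11373 genes. A model with 1 mean per group was fitted with limma 3.58.1 in R 4.3.3 (4 residual and 3.53 prior degrees of freedom), with 6 contrasts and Benjamini-Hochberg adjustment over all genes. Errors are SE of the fit. Data were simulated for 11373 genes, 200 of them changed by the siRNA, with noise independent between arrays. In the average siRNA contrast limma found 74% of true 1.25-fold changes and 100% of true 1.5-fold changes (6 of its 193 calls were false). In PBS it found 50% and 86% (11 of 179 false). In the real average contrast 52.2% of genes were called, so these rates need not hold there.

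The members and lists were chosen with earlier results of these data known. Named members are the up to 5 largest calls without overlap per contrast and direction, the extremes of each complex, and fixed core subunits and isoforms, with others named in counts. Promoters came from RefSeq (GRCr8).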

Additional observations from a re-analysis of the deposited data

Results flagged for a closer look

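Of 7 probe sets that name a subunit together with another symbol and were left out above, 3 were called in siGiver against siNTC cells, averaged over PBS and Ang II. They lie outside the main measurement, and which of their genes gives the signal was not tested. The probe set shared by Atp5mc1 and Atp5mc1l1 was lower at -0.21 ± 0.041 log2 (limma, adjusted p = 0.0039), and that shared by Atp5mc2 and Atp5mc2l1 higher at 0.21 ± 0.033 (adjusted p = 0.0014). Atp5mc1 and Atp5mc2 encode the same ring subunit of complex V. The probe set shared by Ndufa10, an accessory subunit of complex I, and Ndufa10l1 was lower at -0.29 ± 0.037 (adjusted p = 0.000534). The probe sets shared by Cox7a2, Cox5a, Uqcrb and Ndufs5 were not called in this contrast, and none of the 7 was called for Ang II in either arm or for the interaction.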

How the results depend on the processing

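No result changed sign under any alternative in a way that reversed a call, and 11 of 50 named results changed their call under at least 1. The counts of members called moved as follows, against 16 (siRNA in PBS), 33 (siRNA with Ang II), 36 (siRNA average), 0 (Ang II in siNTC), 1 (Ang II in siGiver) and 0 (interaction). Trended, robust moderation gave 32 in PBS, 1 for Ang II in siNTC, 24 for Ang II in siGiver and 11 for the interaction. A filter at the 50th percentile gave 3 for Ang II in siGiver and 1 for the interaction, and cyclic loess gave 2 for Ang II in siGiver. That count was 0 with no filter, with the mean of probe sets, with array medians subtracted, with the replicate block, and with every probe set tested and the brightest or the next brightest read. Read at the next brightest probe set, available above the filter for 6 members, the siRNA counts were 0 in PBS, 1 with Ang II and 1 in the average. Leaving out 1 array gave 9 to 16 in PBS, 23 to 34 with Ang II, 32 to 37 in the average, 0 to 0 and 0 to 1 for Ang II in siNTC and siGiver, and 0 to 1 for the interaction. Where an arm was left with 1 array, it was assumed to vary like the others. Named calls lost when 1 array was left out were Ndufb6 and Ndufb2 in PBS, Ndufb6, Cox5a and Uqcrq with Ang II, Cox5a and Atp5f1b in the average, and Uqcrc2. Replicate numbers did not pair the samples (correlations of deviations from -0.174 to 0.0951), and with the replicate block the siRNA counts were 15, 32 and 36. Updated symbols changed no membership. Signal over background limits the dim members, of which 8 had a mean under 6 log2.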

Other observations

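Some subunit genes start within 1000 bases of a gene on the opposite strand, and 18 such pairs were measured in the average of siGiver against siNTC. The coordinates that gave these pairs are those of GRCr8, and the pairs were listed after the members' values were known. Both genes were called in 3 pairs, the subunit alone in 3, the neighbour alone in 7 and neither in 5. Of all genes tested, 52.2% were called in this contrast, and shared regulation within a pair was not tested. Sdhd and Timm8b, which encodes a chaperone of the space between the mitochondrial membranes, start 96 bases apart and were both lower, at -0.28 ± 0.031 and -0.31 ± 0.045 log2 (limma, adjusted p = 0.000195 and 0.000732). Atp5pf and Gabpa, the DNA-binding subunit of the ETS factor GABP, start 163 bases apart and were lower at -0.14 ± 0.032 and -0.29 ± 0.068 (adjusted p = 0.00868 and 0.00878). Atp5mk and Pdcd11 went in opposite directions, at -0.20 ± 0.033 and 0.10 ± 0.037 (adjusted p = 0.00173 and 0.0476). The largest contrast within a pair was that of Atp5pb, a stalk subunit of complex V, and Wdr77, whose starts are 145 bases apart: Atp5pb stood at -0.017 ± 0.031 (adjusted p = 0.685) and Wdr77 was higher at 1.19 ± 0.033 (adjusted p = 9.36e-07). Both genes of a pair were called in the same direction in 2 of the 18 pairs.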
